A study of Taeniopygia guttata with 22 samples.

Results

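RNA of the male zebra finch (Taeniopygia guttata) song nucleus RA was compared between 20 and 50 days posthatch, over 5 libraries from males of 20 days and 5 from males of 50 days. The libraries were taken by their titles and brain ids, and they are 10 of the 22 libraries of a study that also holds 12 from females. All genes with a numeric gene ID were used after a filter on low counts, which kept 16004 of 21786. Birds were killed within 20 min of the start of the light phase, and none was seen to sing. RA was taken by laser capture from cresyl violet stained frozen sections, and cDNA was made from 1 ng of total RNA with a SMART-Seq v4 kit. Each library carries a brain id of its own, and nothing in the labels names a strain, a genotype or a treatment. A captured piece holds all the cells inside its outline, so that a level belongs to the mixed tissue and not to a cell type.

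RA, the robust nucleus of the arcopallium, is the motor output of the song circuit, and its glutamatergic projection neurons reach the brainstem neurons that drive the vocal organ and breathing. In young males the nucleus is reached by axons from the song nucleus HVC during song learning, and its neurons come to fire in short, precisely timed bursts. As vertebrate neurons mature, growth cone and cytoskeletal genes generally give way to fast sodium and potassium channels, fast release proteins and adult receptor subunits, while oligodendrocytes wrap axons in myelin and energy use grows.

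Total counts were 16.17 to 22.35 M in the 20-day libraries. At 50 days replicates 2 and 3 held 18.49 and 19 M and replicates 1, 4 and 5 held 61.57, 61.19 and 51.96 M, so depth moved with age in 3 of 5 libraries. Its part was checked with a depth term in the model (above or below 40 M counts) and with the shallow libraries alone. The ages separated on the first principal component of the male libraries, which held 32.8% of the variance. Across genes, log2 expression correlated with r from 0.9538 to 0.9587 among the 20-day libraries, 0.9542 to 0.9614 among the 50-day libraries and 0.9214 to 0.939 between the ages. Defining markers of glutamatergic projection neurons were present. SLC17A6, the vesicular glutamate transporter of projection neurons, lay at 551 to 807 CPM (read counts scaled to library size) at 20 days and 482 to 645 CPM at 50 days, and ETV1, a transcription factor of such neurons, at 300.3 to 511 and 312 to 1011 CPM. BCL11B, another defining marker, was lower, at 14.1 to 23.5 CPM at 20 days and 13.7 to 22.4 CPM at 50 days. No tissue outside RA was measured, so these markers do not tell RA from its surroundings. TTR of choroid plexus and FOXJ1 of ciliated cells reached at most 0.336 and 0.871 CPM in any male library. Fibroblast markers were mixed, with COL1A1 at no more than 0.396 CPM, COL1A2 at 14.9 to 76.4 CPM and a sum over that list of 183 to 337 CPM across the male libraries.

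Between 20 and 50 days 4276 of the 16004 genes changed (26.7%), 2005 of them higher (12.5%) and 2271 lower (14.2%) at 50 days. A gene is said to have changed, risen or fallen where edgeR's quasi-likelihood test gave a Benjamini-Hochberg adjusted p under 0.05 over all 16004 genes, and every adjusted p below is from that test. Changes of at least 2-fold numbered 667 upward and 669 downward, 8.35% of the genes tested. The median absolute change of the called genes was 0.71 on the log2 scale. The libraries of the ages did not overlap in CPM for 2903 genes (18.1%), and 2703 of these were called. With a depth term 2712 genes were called, of which 2635 were among the 4276, and all 2635 kept their direction. Among the shallow libraries alone, with 5 birds against 2, 1546 genes were called, of which 1493 were among the 4276 and all kept their direction.

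The changes were uneven across 45 lists of genes grouped by function or cell type, in which 1024 distinct genes were tested. The median log2 change over all genes tested was -0.014, and the lists are set against that value and against the shares of 12.5% higher and 14.2% lower. Calls over all genes also became fewer with a depth term (1260 higher, 1452 lower) and among the shallow libraries alone (804 and 742). List counts under those settings are to be read beside these totals. Lists of immature neurons, axon guidance, and calcium, sodium and potassium channels lay to the lower side. Lists of myelin, astrocytes, glycolysis and oxidative phosphorylation lay to the higher side. These lists are described by their counts and were not tested as sets. The lists of chromatin, cell death, brain matrix, NMDA receptor, oligodendrocyte precursor, and thyroid hormone and retinoic acid genes had shares near those over all genes. Their counts are no result about those lists.

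**Figure D1:**
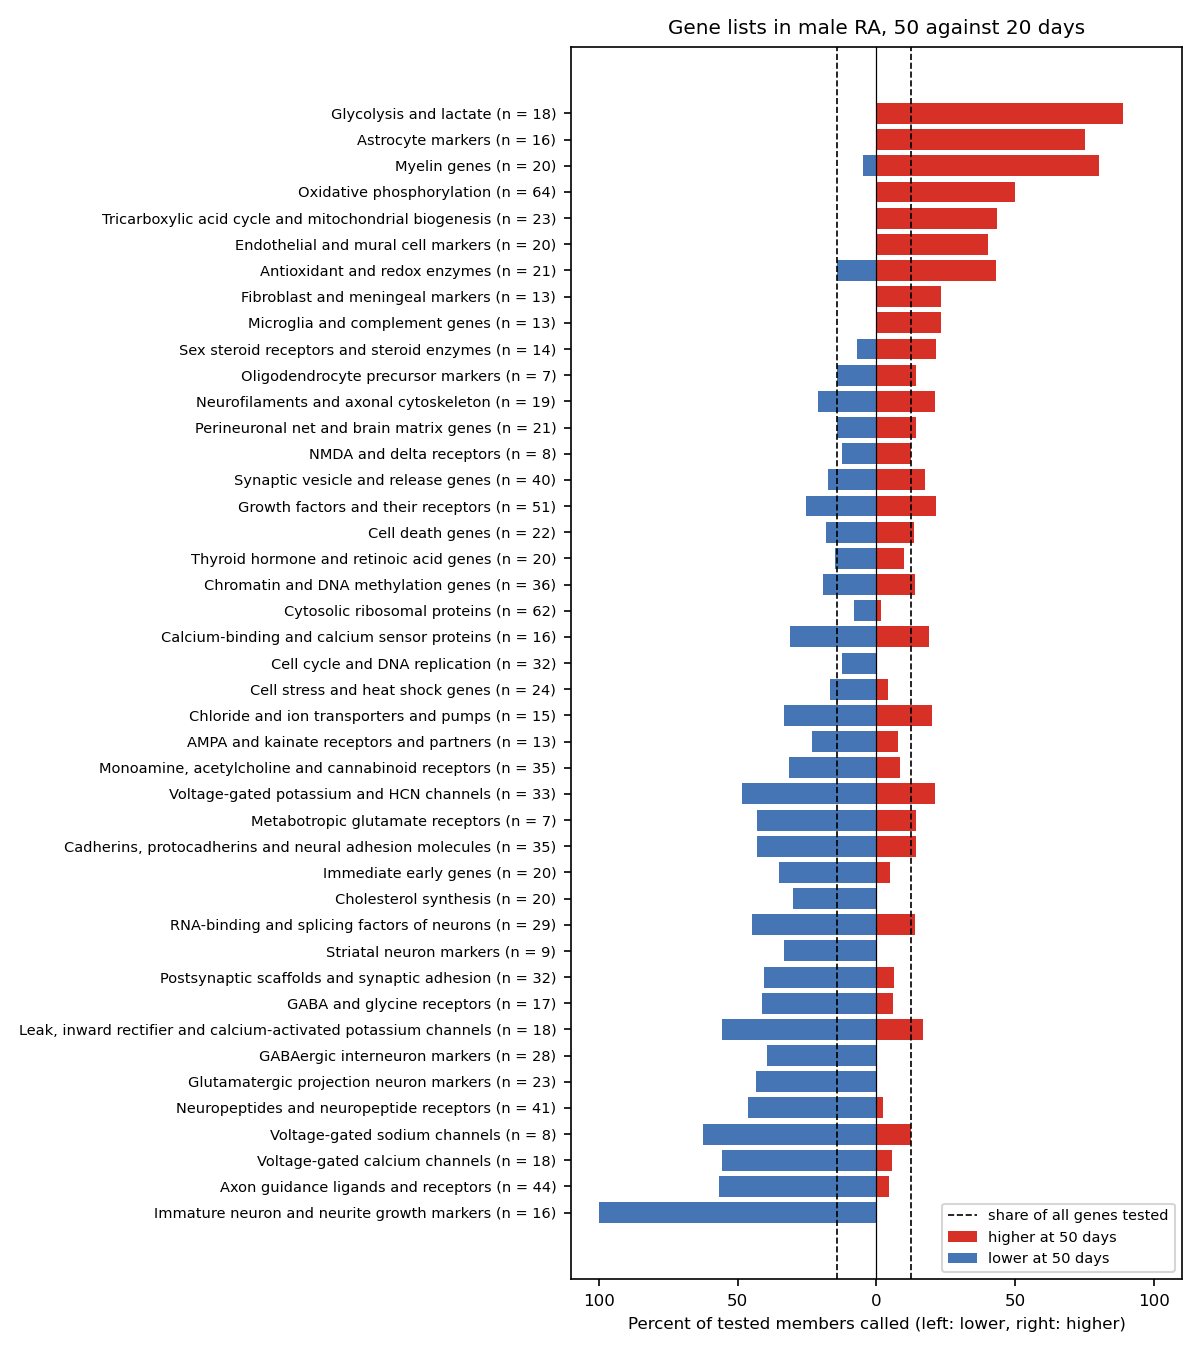
Percent of the tested members of each gene list that were higher (red, to the right) or lower (blue, to the left) at 50 than at 20 days in males, for the lists with at least 7 tested members (n beside each name). The dashed lines mark the shares over all 16004 genes, 14.2% lower and 12.5% higher; all 16 immature neuron genes lie to the left and 16 of 18 glycolysis genes to the right.

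Every tested gene of the immature neuron and neurite growth list fell. All 16 were lower at 50 days, with a median log2 change of -1.57, and the libraries of the ages did not overlap for any of them. Over all genes tested 18.1% did not overlap. The list was written with earlier results of these data known, so its counts describe these members only. With a depth term 15 of the 16 were still called lower. The gene with the smallest adjusted p of all was DPYSL3, a collapsin response mediator protein of growing axons. Its level was 529, 458, 426, 407 and 431 CPM in replicates 1 to 5 at 20 days and 117, 113, 142, 128 and 117 CPM at 50 days. The lowest 20-day bird was 2.87-fold above the highest 50-day bird, and the fall was 3.65-fold (log2 change -1.87 ± 0.0886 SE, adjusted p = 4.38e-12). STMN1, a stathmin that destabilises microtubules, stood at 2127, 1986, 1742, 1921 and 1668 CPM at 20 days and at 415, 676, 429.5, 378 and 475 CPM at 50 days. The 50-day birds lay well below the lowest 20-day bird, a 3.98-fold fall (log2 change -1.99 ± 0.14, adjusted p = 1.89e-09). GAP43, the growth-associated protein of axon terminals, was at 417, 414, 342, 413 and 283 CPM and then at 76.9, 124, 82.7, 62.5 and 93 CPM. Its groups were also apart, with a 4.27-fold fall (log2 change -2.09 ± 0.17, adjusted p = 9.52e-09).

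The same list holds BASP1, a membrane protein of growth cones, which fell 2.83-fold from 961 to 1092 to 322 to 408 CPM (adjusted p = 1.98e-10). DCX, or doublecortin, a microtubule protein of migrating and young neurons, fell 3.12-fold from 175 ± 22.5 to 56.1 ± 18.9 CPM (mean ± SD, n = 5 at each age, adjusted p = 4.12e-06). The transcription factors SOX11 and SOX4 fell with log2 changes of -1.70 and -0.74, and TUBB3, the neuronal tubulin, with -1.42. ELAVL4, an RNA-binding protein of neurons, moved least, by -0.41. In bulk tissue fewer cells of a type and less RNA per cell cannot be told apart. CPM are also relative to the other genes of a library, though scaled between libraries by the TMM method given below. The summed level of the myelin genes went from 567 to 1879.8 CPM at 20 days to 8200.5 to 14073 CPM at 50 days. Its part in the fall of neuronal genes was not tested.

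Many genes that guide axons fell as well. Of 44 tested guidance ligands and receptors 25 were lower and 2 higher at 50 days, with a median log2 change of -0.57. With a depth term 17 were lower and 2 higher. EPHB2, an Eph receptor, stood at 75.2, 108, 75.3, 73.8 and 90.1 CPM at 20 days and 27.4, 29.9, 26.5, 26.6 and 24 CPM at 50 days. No 50-day bird reached a 20-day bird, and the fall was 3.15-fold (log2 change -1.65 ± 0.15, adjusted p = 4.44e-08). PLXNA2, a plexin that serves as a semaphorin receptor, fell 2.68-fold from 356 to 463 to 108 to 173 CPM (adjusted p = 2.94e-07). SLIT1, a repellent ligand, fell from 63.3 to 76.3 to 13.7 to 34.4 CPM (log2 change -1.47 ± 0.25, adjusted p = 1.30e-04). Its receptor ROBO1 fell by less, with a log2 change of -0.64 ± 0.18 (adjusted p = 0.00852), and was not called with a depth term (adjusted p = 0.169). The netrin receptors UNC5A, UNC5C and UNC5D fell with log2 changes of -1.52, -1.51 and -1.30. The semaphorin SEMA3D went the other way and rose 2.03-fold from 23.9 to 54.9 to 62.3 to 101 CPM (adjusted p = 0.00109), as did the netrin NTN4, whose groups overlapped (log2 change 0.77, adjusted p = 0.00843).

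Of 35 tested cadherins and neural adhesion molecules 15 fell (42.9%, against 14.2% over all genes) and 5 rose (14.3%, near the 12.5% over all genes). CDH10, a type II cadherin, fell 2.33-fold from 511 to 871 to 236 to 276 CPM (adjusted p = 3.20e-06), and PCDH8, a protocadherin, fell 2.82-fold (adjusted p = 4.56e-07). PCDH20 rose 3.99-fold, from 8.99, 12, 30.1, 25.9 and 16.2 CPM at 20 days to 66.2, 69.7, 76.4, 85 and 75.1 CPM at 50 days (adjusted p = 4.20e-05). The lowest 50-day bird was 2.2-fold above the highest 20-day bird. CNTNAP1, a paranodal protein of axons at the contact with myelin, rose 2.07-fold (adjusted p = 7.92e-05). CNTNAP2, its relative at the juxtaparanode, was at 410.1 ± 102 and 516 ± 87.3 CPM and was not called (adjusted p = 0.0969).

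In the marker lists of projection neurons and interneurons some members fell and none rose, though PVALB, also a marker of some interneurons, is counted among the calcium-binding proteins, where it rose. Of 23 tested markers of glutamatergic projection neurons 10 were lower at 50 days. NR4A2, a nuclear receptor of several projection neuron types that is also counted among the immediate early genes, stood at 485, 447, 398, 459.6 and 426 CPM at 20 days and 193, 207, 198, 167 and 161 CPM at 50 days. The ages were far apart, with a 2.39-fold fall (adjusted p = 1.89e-09). SOX5, a transcription factor of deep projection neurons in mammals, fell 2.07-fold from 252 to 327 to 125 to 152 CPM (adjusted p = 3.01e-08). NEUROD6 and TBR1 fell with log2 changes of -1.58 and -1.05. FOXP2, the forkhead factor known for its role in vocal learning, fell from 10.6, 12.8, 7.6, 8.66 and 9.74 CPM to 6.17, 3.25, 5.05, 6.04 and 5.69 CPM. Its groups did not overlap (log2 change -0.91 ± 0.21, adjusted p = 0.00267). Its paralog FOXP1 was at 56 ± 5.5 and 64.5 ± 4.8 CPM (adjusted p = 0.178), and the transporter SLC17A6 at 662 ± 113 and 555 ± 67.9 CPM (adjusted p = 0.118), and neither was called.

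Of 28 tested markers of GABAergic interneurons 11 fell, with a median log2 change of -0.53, and 5 fell with a depth term. Among the shallow libraries alone 1 fell. Over all 16004 genes 1452 fell with the term and 742 in the shallow libraries. SP9, a factor of interneuron development, fell from 15.4 to 19.9 to 5.45 to 11.4 CPM (log2 change -0.98 ± 0.17, adjusted p = 1.74e-04). MEIS2 fell 1.63-fold (adjusted p = 1.24e-04). The vesicular GABA transporter SLC32A1 and the enzyme GAD2 fell with log2 changes of -0.51 and -0.49. GAD1, the other GABA-producing enzyme, was at 312 ± 52.7 and 254 ± 46.5 CPM and was not called (log2 change -0.30, adjusted p = 0.0935).

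The summed level of the 29 interneuron markers in the table was 2385 to 2726 CPM at 20 days and 1513 to 2208 CPM at 50 days, and that of the 23 projection neuron markers 4898 to 6181 and 4106 to 4636 CPM. Neither pair of ranges overlapped. Among the lists of other cells, the sums of astrocyte, microglial and endothelial markers were higher at 50 days in every bird. Those of fibroblast and oligodendrocyte precursor markers overlapped between the ages. The microglial sum was 138 to 206 CPM at 20 days and 219 to 353 CPM at 50 days. Of this CD74 alone made up 33.7 to 63.6 and 96.3 to 181 CPM. Only 3 of the 13 members were called, and the sum without CD74 was not computed.

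**Figure D2:**
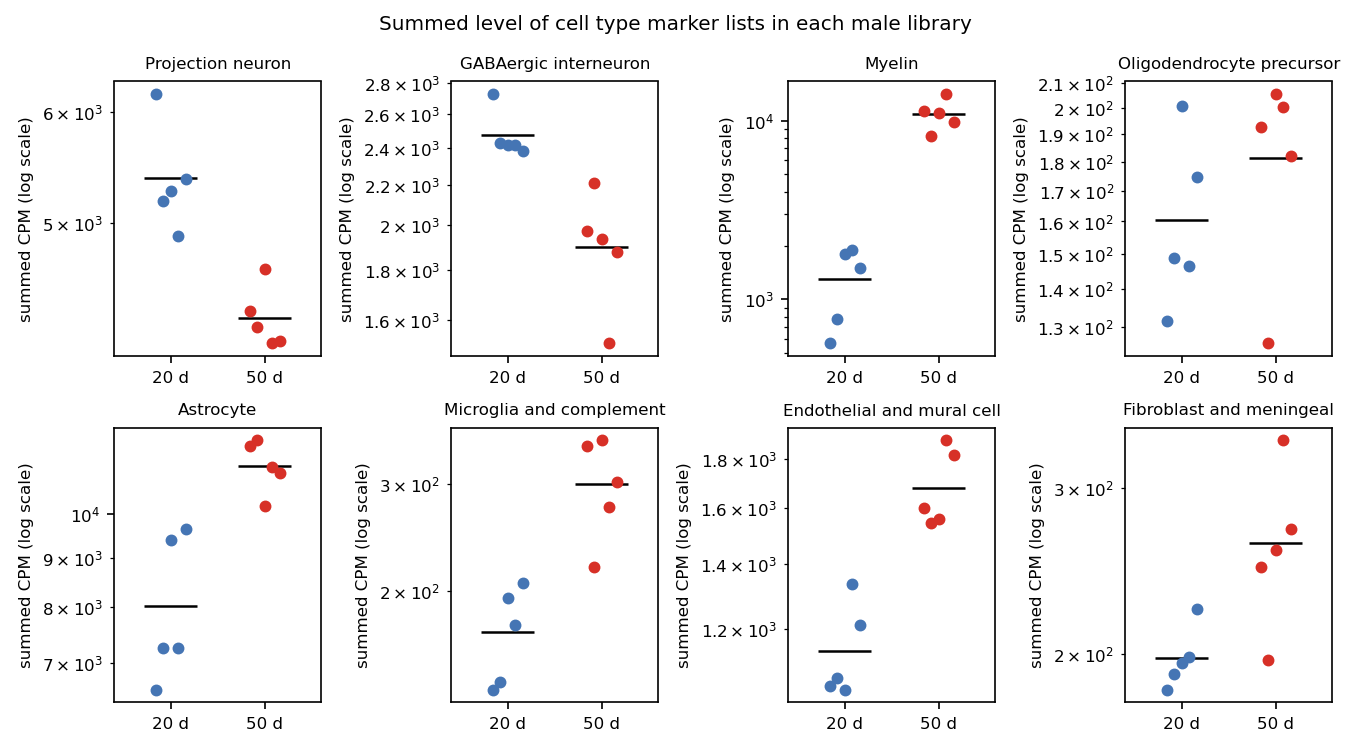
Summed CPM (log axis) of the marker lists of 8 cell types in each male library at 20 days (blue) and 50 days (red), with a line at the group mean of 5 libraries. Myelin sums lie at 567 to 1879.8 CPM at 20 days and at 8200.5 to 14073 CPM at 50 days, and those of both neuron lists are lower at 50 days without overlap.

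Ion channels changed in both directions, most of them downward. In the sodium channel list 5 of 8 tested members fell and 1 rose. SCN3B, an auxiliary beta subunit, stood at 150.1, 147, 117, 103 and 112 CPM at 20 days and at 32.9, 53.6, 24.1, 13.4 and 24.2 CPM at 50 days. Every 50-day bird was below every 20-day bird, a 4.27-fold fall (log2 change -2.09 ± 0.25, adjusted p = 2.14e-06). SCN4B, the beta subunit known for resurgent sodium current in fast-firing neurons, was the member that rose. It went from 8.43, 1.49, 1.68, 3.87 and 2.21 CPM at 20 days to 46.7, 30.1, 26, 37.8 and 39.8 CPM at 50 days. Replicate 1 was the highest 20-day bird, yet the lowest 50-day bird was 3.08-fold above it (log2 change 3.34 ± 0.49, adjusted p = 1.99e-05), and without that bird the log2 change was 3.96. The pore-forming subunit SCN2A fell by 0.84 on the log2 scale, and SCN8A, the main pore of mature axon initial segments in mammals, was at 48.5 ± 14 and 49.5 ± 11.1 CPM (adjusted p = 0.934). FGF13, a cytosolic partner of sodium channels, fell 2.12-fold (adjusted p = 5.53e-06).

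Of 33 tested voltage-gated potassium and HCN channel genes 16 fell and 7 rose. KCNC1, a Kv3 subunit that lets neurons repolarise fast, stood at 104, 84.1, 101, 95.6 and 98.9 CPM at 20 days and 268, 242, 327, 345 and 223 CPM at 50 days. The 20-day birds lay within a narrow range and the lowest 50-day bird was 2.14-fold above it, a 2.9-fold rise (log2 change 1.54 ± 0.11, adjusted p = 2.69e-09). Another Kv3 subunit, KCNC4, moved the other way, from 53.8, 48.1, 49.3, 46.4 and 49.8 CPM to 9.94, 22.9, 12.4, 10.9 and 13 CPM. It fell 3.6-fold without overlap (adjusted p = 4.32e-08), and replicate 2 stood above the other 50-day birds. The third, KCNC2, was at 154 ± 19.5 and 138 ± 20.1 CPM and was not called (adjusted p = 0.298). KCNQ5, a subunit of the slow M-current, fell from 29.2, 27.2, 24.6, 15.8 and 27.9 CPM to 1.62, 2.63, 1.77, 5.62 and 1.83 CPM. That was the largest called fall of any channel gene named here (9.15-fold, log2 change -3.19 ± 0.44, adjusted p = 9.60e-06).

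The Kv beta subunits KCNAB1 and KCNAB2 both rose, KCNAB1 2.61-fold from 55.8 to 83.2 to 148 to 227 CPM (adjusted p = 2.70e-07) and KCNAB2 1.71-fold from 242 to 319.5 to 434 to 521 CPM (adjusted p = 4.19e-06). HCN subunits of the hyperpolarisation-activated current diverged, HCN4 with a log2 change of -2.28 and HCN2 of 0.68, both called. KCNA1, a Kv1 subunit of axons, was at 172 ± 33.6 and 154 ± 18.6 CPM (adjusted p = 0.516), and KCNA2 rose by 0.53 on the log2 scale.

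Of 18 tested leak, inward rectifier and calcium-activated potassium channel genes 10 fell and 3 rose. KCNMB4, a beta subunit of BK channels, fell from 14.3, 9.03, 2.85, 11.7 and 6.17 CPM to 1.34, 1.35, 0.698, 1.51 and 0.885 CPM (7.55-fold, adjusted p = 1.13e-05), and KCNK10, a leak channel, fell 2.74-fold (adjusted p = 3.77e-06). KCNJ10, known as the main inward rectifier of astrocytes and oligodendrocytes, rose 3.57-fold from 8.9 to 16.2 to 36.9 to 48.6 CPM (adjusted p = 1.02e-07). Its rise stood beside that of the glial marker sums given above, whose part was not tested.

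Voltage-gated calcium channels lay lower as a group, with 10 of 18 tested members lower and 1 higher and a median log2 change of -0.72. With a depth term 8 were lower and 1 higher, and among the shallow libraries alone 3 were lower and 1 higher. CACNA1E, the R-type pore, stood at 47.6, 46.1, 44.3, 33.3 and 36.4 CPM at 20 days and 12.2, 15.6, 17.1, 9.08 and 10.7 CPM at 50 days. The lowest 20-day bird was 1.95-fold above the highest 50-day bird (3.23-fold lower at 50 days, adjusted p = 2.26e-05). CACNA1H, a low-threshold T-type pore, fell 3.02-fold from 9.59 to 16 to 2.79 to 4.6 CPM (adjusted p = 6.24e-06), and the other T-type pores CACNA1G and CACNA1I fell with log2 changes of -0.86 and -0.99. The member that rose was CACNG3, which despite its name is an auxiliary subunit of AMPA receptors (log2 change 0.75 ± 0.12, adjusted p = 8.59e-05).

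Calcium-binding proteins split, with 3 of 16 higher and 5 lower. PVALB, or parvalbumin, a calcium buffer of fast-firing neurons, stood at 901, 1157, 572, 1431 and 1016 CPM at 20 days and 5789, 6398, 7764, 8337 and 6824 CPM at 50 days. The lowest 50-day bird was 4.04-fold above the highest 20-day bird, and the rise was 6.92-fold (log2 change 2.79 ± 0.25, adjusted p = 5.13e-08). CABP1, a calmodulin-like calcium sensor, rose 2.41-fold (adjusted p = 7.92e-08). HPCAL4, a neuronal calcium sensor of the visinin family, fell 6-fold from 470.1, 436, 374, 307 and 392 CPM to 98.2, 94.1, 47.1, 25.6 and 64.8 CPM (adjusted p = 5.20e-07). CALB1, the buffer calbindin, fell 1.55-fold (adjusted p = 3.79e-04).

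**Figure D3:**
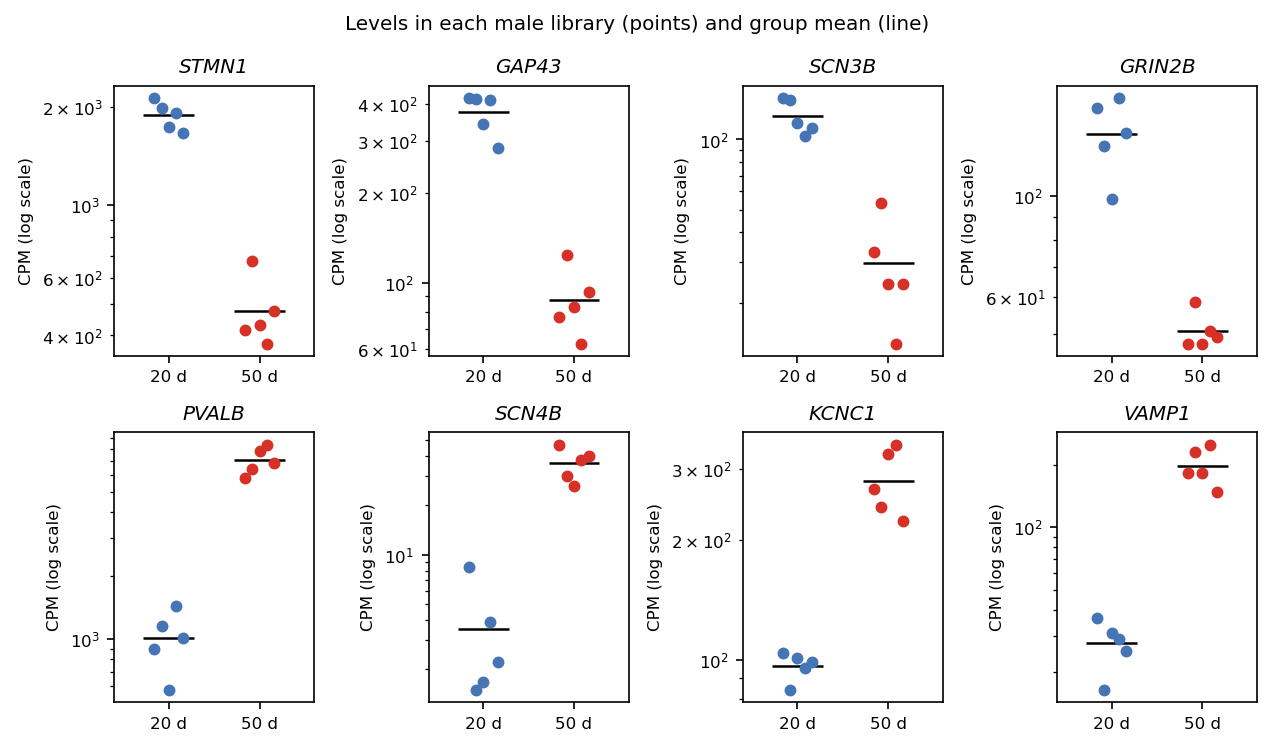
CPM (log axis) of 8 named genes in each male library at 20 days (blue) and 50 days (red), with a line at the mean of 5 libraries. STMN1, GAP43, SCN3B and GRIN2B are lower and PVALB, SCN4B, KCNC1 and VAMP1 higher in every 50-day library.

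Synaptic lists differed in how many members changed. Of 40 tested vesicle and release genes 7 rose and 7 fell, shares of 17.5% each against 12.5% and 14.2% over all genes. VAMP1, the vesicle SNARE of fast synapses, stood at 36.5, 16.4, 31, 28.7 and 25.2 CPM at 20 days and 182, 229, 182, 249.5 and 148 CPM at 50 days. No bird of either age came near the other age, and the rise was 7.18-fold (log2 change 2.84 ± 0.30, adjusted p = 2.94e-07). SYT2, a fast calcium sensor for release, varied widely at 20 days, with 20.3, 4.42, 11.1, 19.4 and 0.906 CPM, and stood at 116, 292, 148, 203 and 215 CPM at 50 days. The lowest 50-day bird was still 5.71-fold above the highest 20-day bird (log2 change 4.10 ± 0.68, adjusted p = 8.88e-05).

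CPLX1, a complexin that clamps and times release, rose 3-fold from 348 to 531 to 998 to 1449 CPM (adjusted p = 1.60e-07), and SV2C, a vesicle protein, rose 1.95-fold (adjusted p = 2.33e-07). SYN3, a synapsin found early in neuron development in mammals, fell 2.76-fold from 98.3 to 158 to 39.2 to 46.5 CPM (adjusted p = 6.08e-08). SYT4, a synaptotagmin that does not trigger fast release, fell 2.57-fold (adjusted p = 1.67e-08). On the postsynaptic side 13 of 32 tested scaffold and adhesion genes fell and 2 rose. LRRTM1, a synaptic adhesion protein with leucine-rich repeats, fell 2.16-fold (adjusted p = 6.93e-06) and CBLN2, a cerebellin that bridges synapses, by a log2 change of -2.76.

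Of 8 tested NMDA and delta receptor subunits 1 rose and 1 fell. GRIN2A, the subunit that becomes common as synapses mature in mammals, stood at 85.1, 52.5, 64, 59.9 and 61.9 CPM at 20 days and 121, 139, 177, 209 and 119 CPM at 50 days (2.36-fold higher, adjusted p = 2.14e-06). GRIN2B, which predominates early in mammals, stood at 155, 128, 98.2, 163 and 137 CPM and 47.6, 58.5, 47.6, 50.7 and 49.1 CPM (2.69-fold lower, adjusted p = 1.81e-07). Neither gene overlapped between the ages, and the obligatory subunit GRIN1 was at 191 ± 30.4 and 189 ± 46.3 CPM (adjusted p = 0.964). The log2 ratio of GRIN2A to GRIN2B was -1.44 to -0.61 at 20 days and 1.24 to 2.03 at 50 days, computed in each library from CPM plus 0.5. Since CPM are not per length, only the shift of such a ratio can be read and not which gene is the more abundant.

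Of 13 tested AMPA and kainate receptor genes 3 fell and 1 rose, and with a depth term 1 fell and none rose. SHISA6, an AMPA receptor partner, fell in both fits (log2 change -1.24, adjusted p = 0.00218, or 0.0306 with the term). GRIA2, the subunit that limits calcium entry, was 1.32-fold lower (adjusted p = 0.00146) and was not called with that term (adjusted p = 0.0522). Among 7 metabotropic glutamate receptors, GRM5 fell 2.79-fold from 85.7 to 134 to 27.2 to 58.2 CPM (adjusted p = 1.02e-06), GRM8 and GRM7 also fell, and GRM4, a presynaptic receptor, rose 2.31-fold (adjusted p = 8.36e-04).

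Receptors for GABA and glycine fell in 7 of 17 tested members and rose in 1. GABRA5, the alpha5 subunit found outside synapses and early in development, stood at 1236, 875, 692, 958 and 893 CPM at 20 days and 302, 447, 326, 271 and 271 CPM at 50 days. It fell 2.88-fold, with every 50-day bird below every 20-day bird (log2 change -1.53 ± 0.15, adjusted p = 1.20e-07). GABRD, the delta subunit of tonic inhibition, rose 1.48-fold with overlapping groups (adjusted p = 0.00413).

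Of 11 pairs of related genes 9 could be measured, and the ages did not overlap in 6 of these. The pairs were picked with earlier results known, and beside the 18.1% of single genes without overlap no share over all ratios was computed, so the count describes these pairs only. The widest shift was that of SCN4B to SCN3B, with a log2 ratio of -6.21 to -4.08 at 20 days and -0.82 to 1.46 at 50 days. SYT2 to SYT1 moved from -9.07 to -5.41 to -2.65 to -1.49, and KCNC1 to KCNC2 from -0.99 to -0.42 to 0.50 to 1.57. MAPT to MAP1B, both microtubule-associated proteins, moved downward, from -2.54 to -2.13 to -3.50 to -2.95. The ratio of the chloride exporter SLC12A5 to the chloride importer SLC12A2 overlapped, at -1.35 to -0.10 and -2.16 to -1.29. Here SLC12A5 was not called (adjusted p = 0.931) and SLC12A2 rose by 1.05 on the log2 scale.

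**Figure D4:**
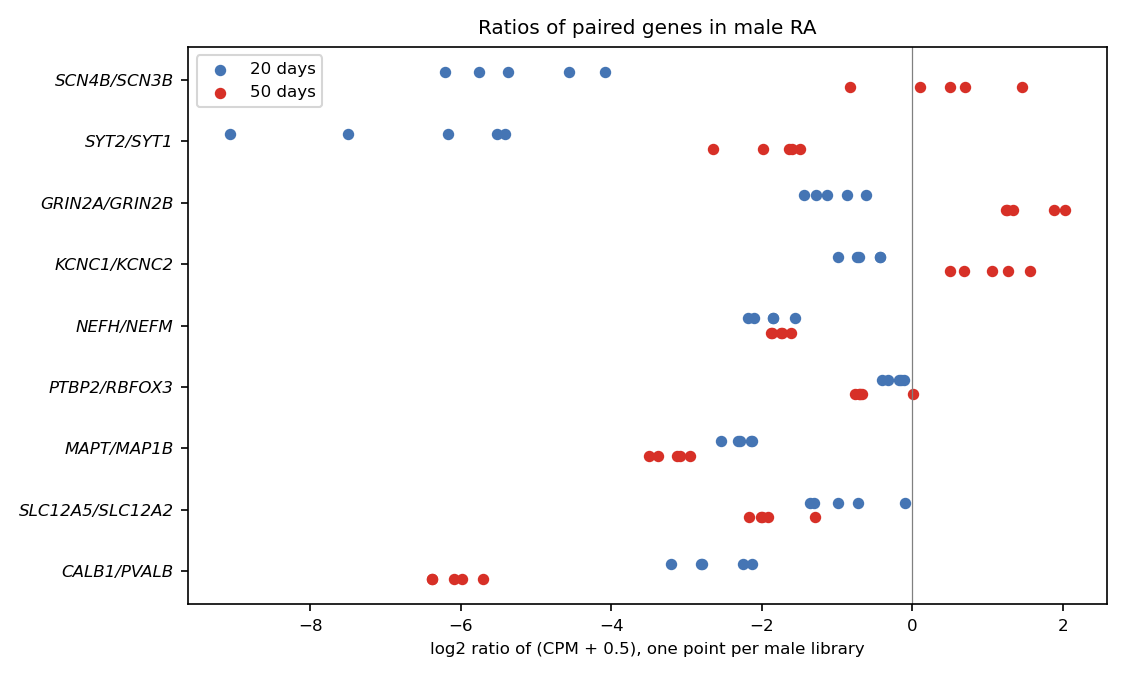
Log2 ratio of the CPM (plus 0.5) of paired genes in each male library at 20 days (blue) and 50 days (red), ordered by the shift between the group means. In 6 of the 9 pairs shown, among them SCN4B/SCN3B and GRIN2A/GRIN2B, the ranges of the ages do not overlap.

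The pumps and exchangers that carry ions moved both ways, with 3 of 15 tested members higher and 5 lower. These are shares of 20% and 33.3%, against 12.5% and 14.2% over all genes. SLC24A2, a potassium-dependent sodium-calcium exchanger, stood at 40.6, 32.9, 40, 44.5 and 24.1 CPM at 20 days and 213, 185, 208, 205 and 145 CPM at 50 days. The lowest 50-day bird was 3.25-fold above the highest 20-day bird (log2 change 2.39 ± 0.17, adjusted p = 1.51e-09). ATP1B2, a beta subunit of the sodium pump known from glia, rose 3.91-fold (adjusted p = 4.97e-08). SLC8A1, a sodium-calcium exchanger, fell 1.79-fold (adjusted p = 1.88e-06).

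Many genes of energy metabolism rose, by small steps. Of 18 tested genes of glycolysis and lactate handling 16 rose and none fell, with a median log2 change of 0.50, and 12 rose with a depth term. ENO1, the enolase, stood at 947, 911, 861, 1049 and 1039 CPM at 20 days and 1567, 1478, 1436, 1407 and 1373 CPM at 50 days. The rise of 1.51-fold was small beside those of the channel genes, yet the ages did not overlap (log2 change 0.60 ± 0.073, adjusted p = 2.64e-06). PKM, the pyruvate kinase, rose 1.68-fold (adjusted p = 9.17e-06), and the lactate transporter SLC16A1 by 1.13 on the log2 scale. LDHB, the lactate dehydrogenase subunit of oxidative tissues, rose 1.33-fold (adjusted p = 0.00302).

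Of 64 tested subunits of oxidative phosphorylation 32 rose and none fell, and 62 had a positive log2 change, with a median of 0.31. Over all genes tested 7844 of 16004 had a positive log2 change. With a depth term 18 subunits rose, and among the shallow libraries alone 7. Over all genes the higher calls went from 2005 to 1260 and 804 under the same settings. SDHA of complex II stood at 253, 244, 277, 244 and 266 CPM at 20 days and 353, 405, 466, 426 and 496 CPM at 50 days (1.67-fold, adjusted p = 3.18e-07), and SDHD, its membrane anchor, rose 1.66-fold (adjusted p = 3.05e-05). COX7C of complex IV rose 1.42-fold (adjusted p = 0.018), a call lost without 20-day replicate 1 (adjusted p = 0.0501). Of 23 genes of the tricarboxylic acid cycle and mitochondrial biogenesis 10 rose and none fell. PPARGC1A, a coactivator that drives mitochondrial genes, stood at 22.3, 25.6, 23.1, 28.1 and 28.8 CPM and 42.9, 39.3, 45, 56.4 and 43.5 CPM (1.78-fold higher, adjusted p = 8.00e-05). ESRRG, a nuclear receptor partner of that coactivator, rose 1.86-fold (adjusted p = 1.13e-06), and MDH1, malate dehydrogenase, 1.41-fold (adjusted p = 3.75e-05).

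Among 21 antioxidant enzymes 9 rose and 3 fell. SOD2, the mitochondrial superoxide dismutase, rose 2.07-fold from 359.8 to 405 to 677 to 912 CPM (adjusted p = 2.70e-07). PRDX6, a peroxiredoxin that is abundant in astrocytes, rose 2.51-fold (adjusted p = 2.64e-06). PRDX4 of the endoplasmic reticulum fell 1.59-fold (adjusted p = 9.75e-05), as did the glutathione peroxidase GPX1 with overlapping groups (log2 change -1.29, adjusted p = 0.00145). TXNRD1, a thioredoxin reductase, was at 9.01 ± 4.81 and 12.8 ± 3.83 CPM and was not called (adjusted p = 0.39).

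Myelin genes had the largest median change of the 45 lists. Of 20 tested members 16 rose and 1 fell, with a median log2 change of 2.24, and 15 rose with a depth term. MBP, myelin basic protein, stood at 77.2, 160.2, 682, 756 and 541 CPM at 20 days and 7105, 4835, 6655, 9118 and 6478 CPM at 50 days. The 20-day birds differed among themselves by up to 9.79-fold, with replicates 1 and 2 the lowest, and the lowest 50-day bird was 6.39-fold above the highest of them (log2 change 3.95 ± 0.63, adjusted p = 5.61e-05).

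LPAR1, a lysophosphatidic acid receptor of oligodendrocytes, rose 11.4-fold from 1.17 to 3.79 to 21.4 to 38.9 CPM (adjusted p = 1.37e-05), and CNP, an enzyme of myelin membranes, 6.8-fold (adjusted p = 2.81e-05). The transcription factors NKX6-2 and SOX10 rose by 4.79 and 1.30 on the log2 scale. CNTN2, the member that fell, is an adhesion protein of axons as well as of myelin (log2 change -0.47 ± 0.12, adjusted p = 0.00528). Of 7 oligodendrocyte precursor markers 1 rose and 1 fell. PDGFRA, the receptor that defines these precursors, was 58.4, 58, 60.6, 56.2 and 56.9 CPM at 20 days and 41, 41.5, 38.2, 33 and 21.3 CPM at 50 days. It fell 1.66-fold (adjusted p = 5.85e-04), and its ligand PDGFA fell 2.17-fold (adjusted p = 7.21e-08).

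Astrocyte markers rose in 12 of 16 tested members and fell in none, with a median log2 change of 0.60, and 8 rose with a depth term. SLC6A9, a glycine transporter of glia, stood at 75.6, 88.3, 99.6, 88.1 and 94.8 CPM at 20 days and 194, 158, 152, 264 and 227 CPM at 50 days (2.23-fold, adjusted p = 1.80e-06). SLC4A4, a bicarbonate transporter, rose 1.85-fold (adjusted p = 8.59e-05), and SLC1A2, the main glutamate transporter, and GJA1, the gap junction protein, by 0.42 and 0.82 on the log2 scale. AQP4, the water channel of astrocyte endfeet, ranged over 756 to 1119 CPM and 681 to 1012 CPM and was not called (adjusted p = 0.29). Endothelial and mural markers rose in 8 of 20 and fell in none. With a depth term 4 of them rose, and among the shallow libraries alone 2. CLDN5, a tight junction protein of brain vessels, rose 1.6-fold from 168 to 249.6 to 273 to 399.8 CPM (adjusted p = 2.67e-04).

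Of 13 microglial and complement genes 3 rose and none fell. CD74, the invariant chain of antigen presentation, rose 2.87-fold from 33.7 to 63.6 to 96.3 to 181 CPM (adjusted p = 5.14e-04), and P2RY12, a receptor of resting microglia, 1.96-fold (adjusted p = 0.00514). CSF1R, the receptor that defines microglia, was at 15.9 ± 5.51 and 19.5 ± 7.97 CPM and was not called (adjusted p = 0.506). Of 13 fibroblast and meningeal markers 3 rose, among them DCN, or decorin, at 22.8, 24, 19.5, 19.4 and 35.7 CPM and 91.2, 43.1, 49.7, 159 and 53 CPM. Replicate 4 was the highest 50-day bird for DCN (log2 change 1.71, adjusted p = 5.88e-04), and without it the log2 change was 1.29. Among the shallow libraries alone, which leave it out, DCN was not called (log2 change 0.96, adjusted p = 0.127). Of 9 striatal markers 3 fell and none rose. Of the defining ones PPP1R1B and ADORA2A reached at most 7.28 and 15.3 CPM in any male bird. DRD1 lay higher, at 102 to 144 CPM at 20 days and 47.6 to 79.8 CPM at 50 days. The summed level of the striatal list was 244 to 352 CPM at 20 days and 173 to 239 CPM at 50 days.

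Genes of the matrix between neurons did not share a direction, with 3 of 21 higher and 3 lower. These shares of 14.3% each lay near the 12.5% and 14.2% over all genes. HAPLN4, a link protein of perineuronal nets, stood at 6.56, 3.24, 3.36, 3.97 and 4.02 CPM at 20 days and 43.5, 109, 88.6, 62.8 and 29.1 CPM at 50 days. The lowest 50-day bird was 4.44-fold above the highest 20-day bird (log2 change 3.97 ± 0.36, adjusted p = 4.97e-08). ACAN, the core proteoglycan aggrecan of such nets, moved the other way, from 11.9, 14.4, 10.9, 6.6 and 8.83 CPM to 2.41, 1.68, 0.698, 1.44 and 3.35 CPM (5.42-fold lower, adjusted p = 0.00292). HAPLN1, another link protein, reached at most 1.4 CPM in any male bird and was not called (adjusted p = 0.386). CHST11, a chondroitin sulfotransferase, fell 1.85-fold (adjusted p = 3.85e-06). Of 19 neurofilament and axonal cytoskeleton genes 4 rose and 4 fell. NEFH and NEFM, the heavy and medium neurofilaments, rose 1.77-fold and 1.58-fold (adjusted p = 4.32e-06 and 0.00202), while MAPT, or tau, fell 2.18-fold (adjusted p = 4.89e-06) and MAP6 2.06-fold (adjusted p = 6.66e-08). MAP1B was at 1467 ± 192 and 1280 ± 114 CPM and was not called (adjusted p = 0.237).

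Genes of peptide signalling lay to the lower side. Of 41 tested neuropeptides and their receptors 19 were lower and 1 higher at 50 days, with a median log2 change of -0.73, and 15 were lower and 1 higher with a depth term. MC5R, a melanocortin receptor, stood at 273, 151, 6.86, 53 and 63.5 CPM at 20 days and 1.17, 3.36, 3.6, 0.638 and 1.06 CPM at 50 days. The 20-day birds spanned a wide range, and the lowest of them, replicate 3, was still above the highest 50-day bird (log2 change -5.98 ± 0.96, adjusted p = 6.35e-05). Without 20-day replicate 1 the log2 change was -5.29. CRHR1, a receptor of corticotropin-releasing hormone, stood at 44.1, 61.6, 26.6, 29.8 and 52.2 CPM and then at 3.07, 3.14, 3.01, 2.28 and 4.04 CPM. Its groups were far apart (log2 change -3.78 ± 0.26, adjusted p = 1.51e-09).

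UCN3, or urocortin 3, a ligand of CRHR2, stood at 0.281, 0, 0, 137 and 171 CPM at 20 days and 0.033, 0, 0, 0 and 0.0385 CPM at 50 days. Only 20-day replicates 4 and 5 were above 1 CPM, the groups overlapped, and although UCN3 was called (adjusted p = 0.00446) the call was lost among the shallow libraries alone (adjusted p = 0.262), so no fold is given. NPY2R, a receptor of neuropeptide Y, fell 2.79-fold (adjusted p = 3.56e-06), and the oxytocin-family receptor OXTR and the cholecystokinin receptor CCKBR with log2 changes of -2.18 and -2.54. GRP, gastrin-releasing peptide, was the member that rose (log2 change 1.04 ± 0.31, adjusted p = 0.0164), a call lost without 50-day replicate 2 (adjusted p = 0.0521). The RefSeq table places this GRP entry on chromosome W, which male birds lack, yet it had 4.18 to 7.3 CPM at 20 days and 9 to 18 CPM at 50 days in males, so it is uncertain which gene its reads come from.

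Of 35 receptors and enzymes of monoamine, acetylcholine and cannabinoid signalling 11 fell and 3 rose. ADRA2A, the alpha2A adrenergic receptor, stood at 418, 223, 224, 309.7 and 579.5 CPM at 20 days and 49.2, 24.8, 10.4, 22 and 14.7 CPM at 50 days. The lowest 20-day bird was 4.54-fold above the highest 50-day bird (log2 change -3.85 ± 0.56, adjusted p = 2.20e-05). DRD1, the D1 dopamine receptor, fell 1.96-fold from 102 to 144 to 47.6 to 79.8 CPM (adjusted p = 3.17e-05). The 3 members that rose were MTNR1B, a melatonin receptor, and the serotonin receptors HTR2A and HTR2C. MTNR1B stood at 1.78, 0.622, 4.29, 0.722 and 1.7 CPM and 12.2, 18.9, 15.3, 21.5 and 11.2 CPM (log2 change 3.10 ± 0.45, adjusted p = 1.77e-05), and without 20-day replicate 3 its log2 change was 3.70. HTR2A rose 2.56-fold from 31.2 to 60 to 88.8 to 115 CPM (adjusted p = 6.01e-05).

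Growth factors and their receptors divided, with 11 of 51 higher and 13 lower (21.6% and 25.5%, against 12.5% and 14.2% over all genes). BDNF, the brain-derived neurotrophic factor, stood at 25, 9.4, 15.1, 10.2 and 12.2 CPM at 20 days and 4.29, 4.15, 2.47, 1.98 and 2.85 CPM at 50 days. It fell 4.58-fold with no overlap (log2 change -2.20 ± 0.31, adjusted p = 1.47e-05), while its receptor NTRK2 was at 600.2 ± 91.6 and 587 ± 66.9 CPM and was not called (adjusted p = 0.843). WNT7B, a Wnt ligand, rose from 2.06, 3.17, 0.98, 0.928 and 6.11 CPM to 24, 15.4, 25.8, 33.3 and 17 CPM (log2 change 3.13 ± 0.42, adjusted p = 8.71e-06). FGF9 rose 2.09-fold (adjusted p = 7.88e-06), and GHR, the growth hormone receptor, 1.87-fold from 4.86 to 9.79 to 13.3 to 16 CPM (adjusted p = 0.00201).

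In the list of sex steroid receptors and steroid enzymes, which also takes in the mineralocorticoid receptor, 3 of 14 tested genes rose and 1 fell. SRD5A2, a steroid 5-alpha reductase that makes the potent androgen dihydrotestosterone, rose 2.84-fold from 31.8, 34.2, 26.6, 54.9 and 41 CPM to 99.7, 98.5, 92.8, 141 and 104 CPM (adjusted p = 5.41e-05). NR3C2, the mineralocorticoid receptor, rose 1.74-fold (adjusted p = 1.23e-04). Genes of oestrogen signalling were low at both ages. ESR1, an oestrogen receptor, was at 1.01 ± 0.619 and 1.08 ± 0.235 CPM and CYP19A1, the aromatase that makes oestrogen, at 1.54 ± 0.659 and 1.74 ± 0.851 CPM. Neither was called (adjusted p = 0.93 and 0.878), and at such levels a modest change was not detectable. Of 20 thyroid hormone and retinoic acid genes 2 rose and 3 fell, shares of 10% and 15% near the 12.5% and 14.2% over all genes. The thyroid-responsive factor KLF9 fell 1.97-fold (adjusted p = 3.62e-06), while RXRA, a retinoid receptor, rose 1.87-fold (adjusted p = 9.97e-06).

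Of 62 tested cytosolic ribosomal proteins 5 fell and 1 rose, below the shares over all genes, and with a depth term 1 rose and none fell. Most leaned slightly lower, however. Only 6 of the 62 had a positive log2 change, against 7844 of 16004 over all genes, and the median was -0.14. Of 32 cell cycle genes 4 fell (12.5%, against 14.2% over all genes) and none rose (against 12.5%). A positive log2 change was found for 8 of the 32, with a median of -0.32. The proliferation markers MKI67 and TOP2A were not called (adjusted p = 0.989 and 0.57). Their levels were 3.12 ± 0.784 against 3.08 ± 1.56 CPM and 2.7 ± 1.4 against 1.89 ± 0.405 CPM. Of 20 cholesterol synthesis enzymes 6 fell and none rose, among them HMGCS1, an enzyme early in the pathway (1.66-fold lower, adjusted p = 6.52e-05). Of 24 stress genes 4 fell and 1 rose, shares of 16.7% and 4.17% against 14.2% and 12.5% over all genes. HSPH1, a co-chaperone, was 2.1-fold lower (adjusted p = 2.14e-06). Of 20 immediate early genes 7 fell and 1 rose, among them NR4A2 and BDNF given above and ARC (log2 change -0.92), in birds not seen to sing.

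Regulators of genes and of RNA changed in both directions. Of 36 chromatin genes 7 fell and 5 rose, shares of 19.4% and 13.9% near the 14.2% and 12.5% over all genes. DNMT3A, a DNA methyltransferase that acts in young neurons, stood at 109, 89.2, 92.8, 85.8 and 88.7 CPM at 20 days and 45.4, 44, 44.9, 41.8 and 45.6 CPM at 50 days. It fell 2.1-fold (adjusted p = 3.31e-08). MBD3 fell 2.05-fold (adjusted p = 5.62e-09) and EZH1, a histone methyltransferase of mature cells, rose 1.43-fold (adjusted p = 3.51e-05). Of 29 RNA-binding and splicing factors 13 fell and 4 rose. CELF2 and CELF6 fell 1.77-fold and 1.94-fold (adjusted p = 1.15e-07 and 1.24e-07), while MBNL2, a splicing factor of mature tissue, rose 1.81-fold (adjusted p = 1.27e-05) and RBFOX1 1.35-fold (adjusted p = 1.42e-04). Of 22 cell death genes 4 fell and 3 rose, shares of 18.2% and 13.6% that also lay near those over all genes. BID, a protein that promotes apoptosis, fell 2.74-fold (adjusted p = 1.79e-05), and the death receptor FAS rose 2.81-fold (adjusted p = 2.52e-04).

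A few genes went from no reads at all to clear expression. Called genes with a symbol that were under 0.5 CPM in all birds of an age and at least 3 CPM in all birds of the other numbered 3, all of them off at 20 days, and 0 were off at 50 days. SIX2, a homeobox factor, had no count in any 20-day male and 36.8, 19.3, 31.5, 33.6 and 33.7 CPM at 50 days. With the mean CPM of the 50-day birds set against a floor of 3 counts over the 20-day group, SIX2 was at least 990.1-fold higher at 50 days. NKX2-8, another homeobox factor, also had no count at 20 days and 14.7, 3.14, 11.1, 13.5 and 4.81 CPM at 50 days, at least 302-fold higher. HAPLN2, a link protein of nodes of Ranvier, went from no count to 6.28, 3.48, 7.57, 14 and 7.87 CPM, at least 250.5-fold higher. That all 5 of the 50-day birds expressed each gene follows from the rule by which the genes were picked. The floor covers counting error only.

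The 8 genes with the largest rises among those with a mean of at least 5 CPM and no overlap were SIX2, APOH, SLC30A2, NKX6-2, TMEM278, ANLN, SYT2 and AOAH. APOH, which codes for a plasma apolipoprotein, stood at 0, 0.187, 1.59, 1.65 and 2.26 CPM at 20 days and 132, 124, 175, 163 and 105 CPM at 50 days (log2 change 6.94 ± 0.71, adjusted p = 2.68e-07). SLC30A2, a zinc transporter, rose from 0.281, 0, 0.327, 0.103 and 0.226 CPM to 1.75, 5.77, 1.72, 42.4 and 10.4 CPM (log2 change 5.98, adjusted p = 4.45e-04). Replicate 4 alone reached the highest value, and without it the log2 change was 4.65. ANLN, an actin-binding protein of dividing cells and of myelin, rose from 1.3 to 2.95 to 24.2 to 44.2 CPM (log2 change 4.12 ± 0.37, adjusted p = 5.13e-08), and AOAH, a lipase that inactivates bacterial lipopolysaccharide, from 0.283 to 2.49 to 8.93 to 26.5 CPM (log2 change 4.00, adjusted p = 1.02e-05). TMEM278, whose role is not described here, had a log2 change of 4.70 (adjusted p = 2.38e-06), or 5.36 without 20-day replicate 4.

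The 8 largest falls by the same rule were MC5R, ADRA2A, CRHR1 and KCNQ5, given above, with TRAF5, CPNE7, C15H22orf15 and NPNT. TRAF5, an adaptor of tumour necrosis factor receptors, stood at 102, 70.9, 38, 35.9 and 53.1 CPM at 20 days and 4.32, 6.89, 5.05, 6.23 and 7.37 CPM at 50 days (log2 change -3.33 ± 0.25, adjusted p = 3.15e-09). CPNE7, a copine that binds membranes with calcium, fell from 32.8 to 69.3 to 3.56 to 9.94 CPM (log2 change -3.06, adjusted p = 2.26e-05). NPNT, or nephronectin, an extracellular ligand of integrins, fell from 9.11 to 36.4 to 0.752 to 3.97 CPM (log2 change -2.90, adjusted p = 1.58e-05). That no 50-day bird reached a 20-day bird in these genes was asked for by the rule itself. C15H22orf15 fell from 4.85 to 12.6 to 0.392 to 2.95 CPM (adjusted p = 0.0108), with a log2 change of -3.01, or -3.72 without 50-day replicate 1.

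By chromosome class, from the RefSeq gene table of the bTaeGut7.mat assembly, the called share was 29.5% of 12921 autosomal genes and 29.3% of 658 Z-linked genes. The Z-linked genes had 91 higher and 102 lower, with a median log2 change of -0.040 against -0.014 for the autosomal genes. Of 6 W-linked entries 1 was higher, the GRP entry given above. Genes without a class had a called share of 11.2%.

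Between the same ages the female libraries, 5 at 20 days and 7 at 50 days, had 2378 genes called (14.9%). Of the 4276 genes called in males 1171 were also called in females (27.4% of the male and 49.2% of the female genes), 1030 in the same direction and 141 in the opposite. The test of the difference between the age changes, male minus female, called 1971 genes (12.3%). With a depth term the difference was called for 72 genes only, 71 of them among the 1971. All 5 female 20-day libraries were deep and all 5 male ones shallow, so at 20 days sex and depth cannot be told apart. At 50 days only replicate 6 of the females was deep, so depth moved with age in females too, the opposite way from males. The female calls and their overlap with the male calls are from the fit without a depth term. Female calls and this overlap were not counted again with the term. The female log2 change of single genes could shift with it, as for SCN3B (-0.16 without and -0.64 with the term). For KCNC1 it moved little (0.56 and 0.53). Female 50-day replicates 5 and 6 carry brain ids that share a number, and it is not stated whether they come from 1 bird. With their counts summed as 1 library, a choice made after seeing the data for the female count, 2152 genes were called in females and 1797 for the difference.

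PVALB was among the genes called under both fits, with a log2 change of 2.79 in males and 0.26 in females, from 682 ± 288 to 815 ± 192 CPM (difference 2.53, adjusted p = 6.78e-05, or 0.0224 with a depth term). VAMP1 had 2.84 in males and -0.0573 in females (adjusted p = 8.25e-05 and 0.0403), and HAPLN4 3.97 and 1.28 (adjusted p = 4.13e-04 and 0.0111). STMN1 had a log2 change of -1.99 in males, against -0.42 in females (adjusted p = 4.38e-05 and 0.0444). CACNA1H had values of opposite sign, with -1.59 in males and 0.27 in females (adjusted p of the difference 2.14e-04, or 0.0479 with the term). UCN3 went from 0.0108 ± 0.0242 to 41.3 ± 57 CPM in females (adjusted p = 0.00796), the other way from males. Its difference was called in both fits (adjusted p = 7.64e-04, or 0.0152 with the term). The SD of the older females exceeded their mean, however. Among the younger males only the birds at 137 and 171 CPM were above 0.281 CPM. The male call was lost among the shallow libraries alone (adjusted p = 0.262). These opposite signs are therefore not read as a change shared by all birds of a sex.

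Other named genes had a difference that was called only without the depth term. SCN3B had -2.09 in males and -0.16 in females (adjusted p = 7.23e-04, or 0.301 with the term), KCNC1 1.54 and 0.56 (adjusted p = 2.43e-04, or 0.055), and GRIN2B -1.43 and -0.0162 (adjusted p = 9.22e-05, or 0.0582). The size of the difference shrank with the term for SCN3B, from -1.93 to -1.15. It moved less for GRIN2B (-1.41 to -1.27) and KCNC1 (0.97 to 1.03). For the myelin gene MBP the difference was not called, with 3.95 in males and 2.89 in females (adjusted p = 0.401). APOH had 6.94 in males and 6.94 in females (adjusted p = 0.999).

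**Figure D5:**
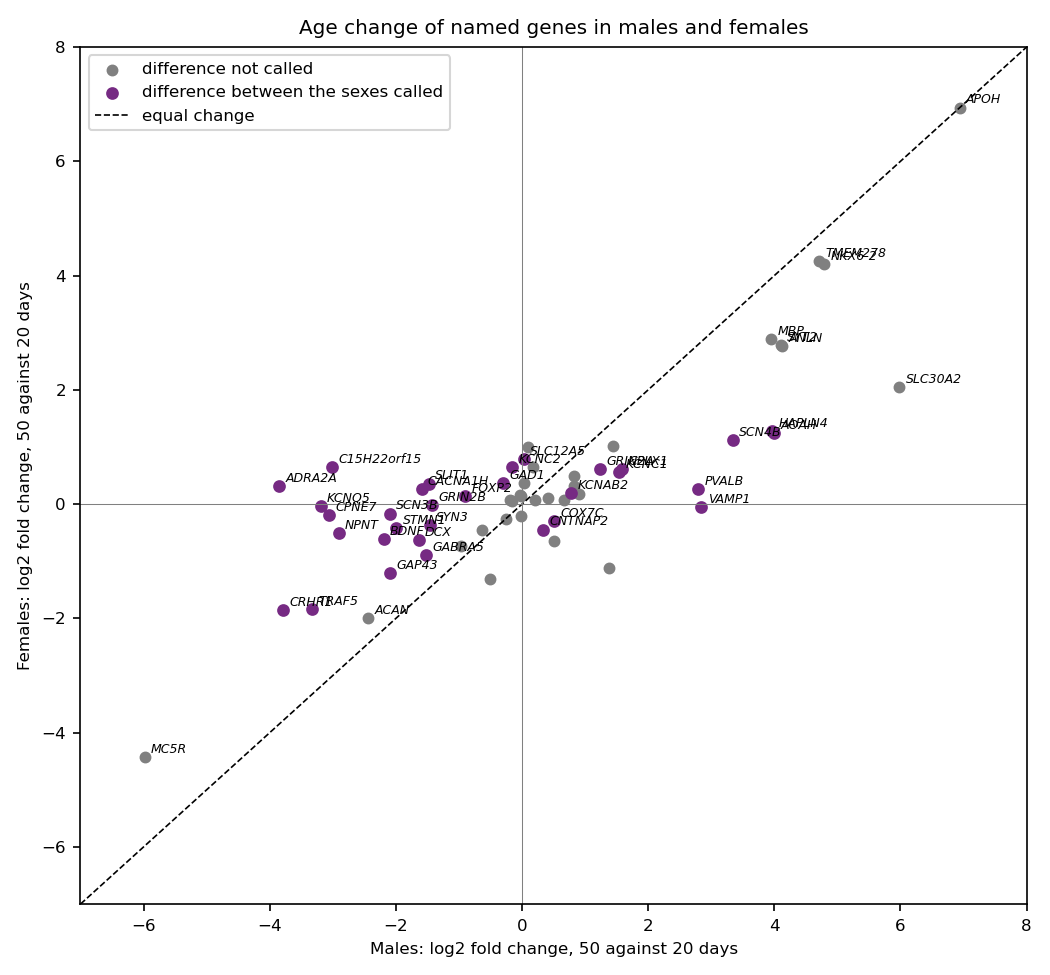
Log2 fold change from 20 to 50 days in males (horizontal) and females (vertical) of the genes with the largest male changes and of a fixed set of genes, without SIX2 and UCN3, whose fitted values are not bounds. Purple points are genes whose male and female changes differ at an adjusted p under 0.05 without a depth term; the dashed line marks equal change, and PVALB, VAMP1 and SCN4B lie well below it while APOH lies on it.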

How the data were processed

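The deposited values are raw counts of reads for every gene and library, which the authors left as whole numbers without normalisation. The submitters' processing notes name Trimmomatic 0.36, FastQC 0.11.9 and STAR 2.6.1, a trimmer, a quality check and an aligner. The sources used here do not give the build, the annotation, the counting program or its strand option, so reads of overlapping or antisense genes may not be told apart. Of 21955 entries 169 without a gene ID were left out (0.0344% to 0.0739% of counts), and 0 columns were unused.

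All 22 libraries were fitted in edgeR 4.0.16 (R 4.3.3) with 4 sex and age groups, after filterByExpr and TMM scaling, and the male contrast of 50 minus 20 days was tested over 16004 genes. CPM are scaled by TMM. SE is the log2 change over the root of F. P-values measure the spread between libraries with their own brain ids, and floors of 3 counts cover counting error only. Chromosomes and symbols come from the RefSeq table of bTaeGut7.mat, which matched 13585 tested genes. Of the 1196 symbols listed 131 were not matched in the table, MOG of the fixed set among them. Some genes of these lists are not reported here, though the counts over each list include them.

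Named genes are the 8 largest rises and 8 largest falls without overlap and with at least 5 CPM, the 2 called members with the smallest p in each direction of each list, a fixed set, and genes off at an age. Other list members are named to show a list's range and were chosen after their values were seen. The members and lists were chosen with earlier results of these data known. Alternatives were RLE scaling, DESeq2 1.42.0, limma 3.58.1 voom with quality weights, other filters, males only, a replicate block, the depth set (limit of 40 M) as a term, shallow libraries only, thinning, robust dispersions, an adjusted p under 0.01, a fold limit of 1.5 and leaving out each library. The steps were tested on simulated counts.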

Additional observations from a re-analysis of the deposited data

Results flagged for a closer look

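Among the named genes, 23 of 341 groups of 5 male libraries (6.74%) held a library far from the other 4 by the gap to the nearest value. For independent groups chance would flag about 1 in 20. Most named genes were picked by their values and all share the same libraries, so the share cannot be read against that rate. Male 50-day replicate 4 stood above the other 4 birds for SLC30A2 (42.4 CPM against 1.72 to 10.4), KCNQ5 (5.62 against 1.62 to 2.63), SRD5A2 (141 against 92.8 to 104), ESR2 (4.6 against 0.0495 to 0.336) and TXNRD1 (19.5 against 9.75 to 12.1). Male 50-day replicate 2 stood above the others for KCNC4 (22.9 CPM against 9.94 to 13), CALB1 (122 against 91.4 to 100), GRIN2B (58.5 against 47.6 to 50.7) and GHR (16 against 13.3 to 14). CELF2 was high in 50-day replicate 3 (373 CPM against 322 to 333) and MKI67 in 50-day replicate 5 (5.87 against 2.26 to 2.52).

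Male 20-day replicate 1 stood above the other 20-day birds for CDH10 (871 CPM against 511 to 568), MAPT (386 against 259 to 296), HAPLN4 (6.56 against 3.24 to 4.02), DRD1 (144 against 102 to 112), HTR2A (60 against 31.2 to 35.1), TYMS (8.15 against 3.34 to 4.54) and ROBO1 (92.1 against 56.5 to 65.1). The others at 20 days were SV2C in replicate 3 (129 CPM against 110 to 114), SOD2 in replicate 3 on the low side (360 against 393 to 405), DCN in replicate 5 (35.7 against 19.4 to 24), PKM in replicate 4 (745 against 582 to 616) and HAPLN1 in replicate 2 (1.18 against 0 to 0.309).

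The age change differed between males and females for 34 of the 64 genes examined, by edgeR's test of the difference with adjusted p over all genes, and 6 of the 34 were also called with a depth term. Over all genes the difference was called for 12.3%, or 72 of 16004 genes with the term, and many of the 64 were picked for the size of their male change, which favours such a difference. The values below are log2 changes of males minus those of females. Positive differences were 10.2 for SIX2, a fitted value that is no bound, 2.9 for VAMP1, 2.75 for AOAH, 2.69 for HAPLN4, 2.53 for PVALB and 2.22 for SCN4B. Smaller ones were 0.972 for KCNC1, 0.971 for CPLX1, 0.806 for COX7C, 0.779 for CNTNAP2, 0.622 for GRIN2A and 0.58 for KCNAB2.

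Negative differences were -22.9 for UCN3, again a fitted value that is no bound, -4.16 for ADRA2A, -3.65 for C15H22orf15, -3.17 for KCNQ5, -2.87 for CPNE7 and -2.4 for NPNT. They were -1.93 for CRHR1, -1.93 for SCN3B, -1.86 for CACNA1H, -1.83 for SLIT1, -1.58 for BDNF, -1.57 for STMN1, -1.49 for TRAF5, -1.41 for GRIN2B, -1.1 for SYN3, -1.04 for FOXP2 and -1.01 for DCX. The smallest were -0.891 for GAP43, -0.803 for KCNC2, -0.764 for SLC12A5, -0.667 for GAD1 and -0.639 for GABRA5.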

How the results depend on the processing

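The male count of 4276 genes (2005 higher, 2271 lower) was 2712 (1260 and 1452) with a depth term, 1546 (804 and 742) in shallow libraries only, 2665 (1205 and 1460) at an adjusted p under 0.01 and 861 (388 and 473) with a fold limit of 1.5. Leaving out each male library gave 3639 to 4208 (1680 to 1956 higher, 1939 to 2252 lower), and the other settings 3228 to 4664. The difference between the sexes was called for 1971 genes, for 72 with a depth term, and for 1506 to 2131 without each library. Deviations from the group means correlated with r from -0.0431 to 0.061 between same-numbered male libraries of the ages. Between libraries of unlike number r was -0.0617 to 0.121. With so few libraries these values cannot tell whether replicate numbers pair the birds. A replicate block called 3228 genes in males (1683 and 1545) and 1764 for the difference.

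Leaving out 1 library ended the call of 9 named genes. These were GRIK1, SLITRK2, SOX8, DUSP1, TYMS, HSP90AA1 and HDAC8, each without 3 to 8 of the 10 libraries in turn (highest adjusted p 0.107, 0.0989, 0.120, 0.128, 0.0877, 0.0809 and 0.113), GRP without 50-day replicate 2 and COX7C without 20-day replicate 1. Without 50-day replicate 1 the log2 change of HBE1 was -3.78 in place of -3.08. With a depth term 16 named genes lost their call, among them GRIA2, ROBO1, HBE1, TEKT1, GRIK1, SLITRK2, SOX8, DUSP1, TYMS, HSP90AA1 and HDAC8. In shallow libraries only 30 did, among them the same genes except HBE1. Also lost there were C15H22orf15, CALB1, SHISA6, GRM8, MEIS2, CNTN2, DCN, PPP1R1B, GPX1, COX7C, LDHB and UCN3.

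Only genes that were not called changed sign. GRIN1 was 0.0076 with DESeq2, 0.0074 with RLE scaling, 0.013 at 1 CPM in 5 libraries, 0.16 with the depth term, 0.022 with voom, 0.0071 in males only, 0.020 with no filter and 0.26 in shallow libraries. MKI67 was 0.018 with DESeq2, 0.014 with RLE scaling, 0.022 at 1 CPM in 5 libraries, 0.015 (males only), 0.030 (no filter) and 0.11 (thinned). NTRK2 was 0.019 with the depth term, 0.00034 with voom, 0.0024 with no filter and 0.040 in shallow libraries. SCN8A was -0.020 with the depth term and -0.0096 thinned, KCNC2 0.0084 in shallow libraries, and ESR2 -0.22 with voom and -0.54 in shallow libraries.
Without each library in turn, the lowest and highest values were -0.099 and 0.16 for SCN8A, -0.16 and 0.078 for GRIN1, -0.096 and 0.062 for NTRK2, -0.064 and 0.53 for ESR1, -0.95 and 1.79 for ESR2, -0.048 and 0.42 for CYP19A1, -0.050 and 0.18 for SLC12A5, and -0.38 and 0.082 for MKI67. The cause of these shifts was not tested.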

Other observations

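Of 5 tested red blood cell markers 1 fell and none rose. The globin gene HBE1 was at 12.7, 8.71, 5.92, 4.33 and 9.51 CPM in the male 20-day libraries and 2.24, 0.448, 1.56, 0.336 and 0.269 CPM in the 50-day libraries, so that no 50-day bird reached a 20-day bird (log2 change -3.08 ± 0.66, adjusted p = 0.00125 by edgeR's test), though the call was lost with a depth term (adjusted p = 0.0655). HBAD, an alpha globin, ranged over 32.7 to 71.5 CPM and 27.4 to 47.8 CPM, with overlap. The summed level of the 6 red blood cell markers in the table was 339 to 767 CPM at 20 days and 349 to 539 CPM at 50 days.

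Of 4 tested ependymal and choroid plexus markers 1 rose, TEKT1, a tektin of cilia, at 2.11, 3.61, 7.32, 4.28 and 4.47 CPM and 12.5, 11, 4.35, 15 and 8.73 CPM. Its groups overlapped (log2 change 1.24 ± 0.32, adjusted p = 0.0056), and with a depth term it was not called (adjusted p = 0.113).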
